A study of Mus musculus with 12 samples.

Results

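The noradrenaline transporter and the adrenergic receptors are the proteins that remove noradrenaline from the synapse and receive it, and several antidepressants act on them directly. Of 8 genes listed for this system (Slc6a2, Adra1a, Adra1b, Adra1d, Adra2a, Adra2b, Adra2c and Adrb1), 3 had a probe set that carried exactly 1 gene symbol equal to theirs, and each of these had 1 probe set. They were Slc6a2, the transporter, Adra1b, the α1B receptor, and Adra2c, the α2C receptor. The other 5 were not analysed here. The 3 were taken from 22180 genes named on the array by the same rule, which reads gene symbols only.

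Transcript levels came from 12 Affymetrix whole-transcript arrays of cultured primary neurons, which came from embryonic brain of the outbred ICR (CD-1) mouse. Cultures received drug on day 3 in vitro, and RNA was taken after 48 h, on day 5. The groups were control, amitriptyline (5 µM), imipramine (5 µM), citalopram (10 µM), duloxetine (0.1 µM) and mirtazapine (50 µM), with 2 arrays in each of the 6 groups. The labels do not give the brain region, what the controls received, or whether the 2 arrays of a group hold separate cultures. The p-values below therefore reflect the scatter between these arrays, which may be technical. Values are log2 and were normalised by the authors with RMA, which removes background, equalises the distribution of probe intensities between arrays and summarises the probes of a set.

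Noradrenaline is made from tyrosine by neurons of the locus coeruleus and a few other brainstem groups, whose axons reach most of the brain. The transporter encoded by Slc6a2 returns it to the axon. Amitriptyline, imipramine and duloxetine block this uptake together with that of serotonin, citalopram is selective for serotonin uptake, and mirtazapine blocks α2 receptors. The α1 receptors couple to Gq and phospholipase C. The α2 receptors couple to Gi, lower cyclic AMP and restrain transmitter release, and the β receptors couple to Gs and raise cyclic AMP. RNA levels on these arrays report neither binding nor activity of these proteins.

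Slc6a2 lies on chromosome 8 (92960470 to 93001667), Adra1b on chromosome 11 (43774605 to 43901250) and Adra2c on chromosome 5 (35278566 to 35281763), all in GRCm38.p6 as RefSeq annotates it. RefSeq's promoter table held 2 of the 3 genes, with 2 separate starts for Adra1b. The 250 bases before each start are shown because the study's title concerns epigenetic effects and CpG dinucleotides, in capitals here, are the sites of DNA methylation. Methylation itself was not measured. The inner start of Adra1b (chr11:43836490-43836739, minus strand) had 22 CpG, more than 85.2% of the 32851 promoters of the same length, and its outer start (chr11:43901238-43901487, minus strand) had 3. The promoter of Adra2c (chr5:35278316-35278565, plus strand) had 6, which is the median of all promoters. Which of the 2 starts the transcripts read by the Adra1b probe set came from was not tested.
Adra1b inner start: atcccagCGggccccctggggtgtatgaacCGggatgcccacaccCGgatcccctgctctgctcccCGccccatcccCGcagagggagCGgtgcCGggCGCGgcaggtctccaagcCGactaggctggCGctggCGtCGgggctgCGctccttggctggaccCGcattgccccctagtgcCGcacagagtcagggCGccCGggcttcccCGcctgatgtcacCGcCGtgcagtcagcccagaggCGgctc
Adra1b outer start: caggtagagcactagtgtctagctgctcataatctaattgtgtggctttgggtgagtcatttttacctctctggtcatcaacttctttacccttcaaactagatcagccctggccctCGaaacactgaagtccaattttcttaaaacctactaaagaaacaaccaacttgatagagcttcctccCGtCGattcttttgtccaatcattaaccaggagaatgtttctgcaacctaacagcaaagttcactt
Adra2c: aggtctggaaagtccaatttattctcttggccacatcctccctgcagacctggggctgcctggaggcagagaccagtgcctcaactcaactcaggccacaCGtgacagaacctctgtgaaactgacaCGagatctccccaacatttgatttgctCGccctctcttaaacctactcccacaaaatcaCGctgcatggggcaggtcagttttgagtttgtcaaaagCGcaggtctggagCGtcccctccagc

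The first question was whether these transcripts stood above background. None of the 3 fell under the 30th percentile of all 41345 probe sets (log2 5.72), the filter on low values used here, so all 3 passed and were tested. Their mean log2 over the 12 arrays was 6.29 for Slc6a2, 6.57 for Adra1b and 6.85 for Adra2c, which placed them above 42.0%, 48.2% and 54.3% of all probe sets. Probe sets differ in how brightly they hybridise, so these means do not rank the genes by abundance.

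Olfactory receptor genes (symbols Olfr and a number) gave a second reference, since this family is largely silent outside the nose. Their 1091 probe sets had a median of 4.44, and 95% of them lay under 6.54. Slc6a2 was below that level and so within the range of a family taken as silent. Adra1b was above it by less than the SD of its own replicates in most groups, with 95.1% of the olfactory receptor probe sets below it, and Adra2c exceeded 97.0% of them. By this reference Slc6a2 was near background, Adra1b was at its edge and Adra2c was a little above it.

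**Figure D1:**
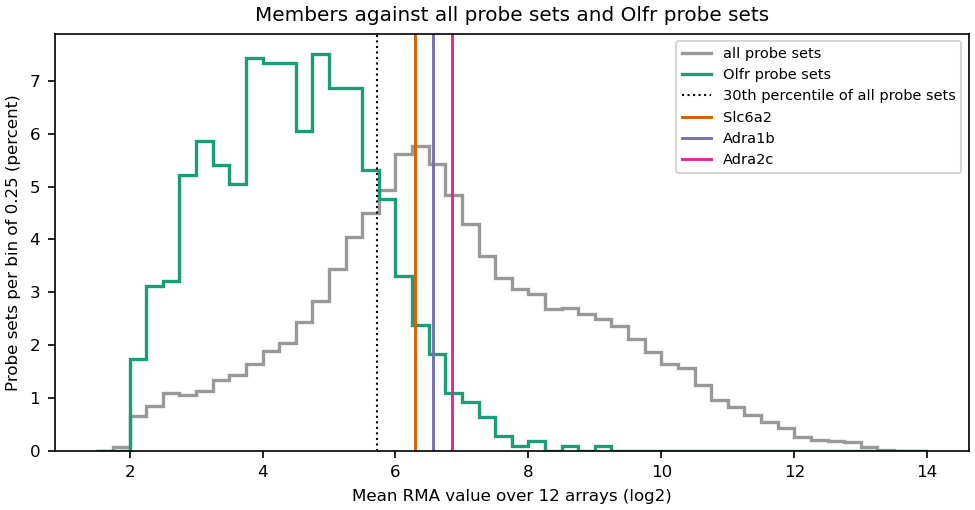
Distribution of mean RMA values (log2, horizontal) as percent of probe sets per bin (vertical) for all 41345 probe sets (grey) and 1091 olfactory receptor probe sets (green), with the 30th percentile of all probe sets dotted and the 3 genes as coloured lines. All 3 genes lie to the right of the dotted line at 5.72, and Slc6a2, at 6.29, still lies within the upper tail of the olfactory receptor probe sets.

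The neuronal markers that should define these cultures read high, and so did several glial ones. Of the 8 neuronal markers tested, Rbfox3 was lowest, above 94.0% of probe sets, and Stmn2 highest, above 99.9%. The 8 astrocyte markers ranged from S100b, above 33.1%, to Slc1a3 and Aldoc, above 97.0% and 97.4%. The 6 oligodendrocyte lineage markers ranged from Sox10, above 58.8%, to Olig1, above 92.8%. The 6 microglial markers ranged from P2ry12, above 38.3%, to Cx3cr1, above 69.6%. Among the other genes that define a noradrenergic neuron, Th (6.81), encoding tyrosine hydroxylase, Dbh (6.36), encoding dopamine β-hydroxylase, and Slc18a2 (6.58), encoding the vesicular monoamine transporter, had mean log2 values in the same range as the 3 genes, above 53.5%, 43.5% and 48.5% of probe sets. Dbh was also below the 95% level of the olfactory receptor probe sets. In bulk RNA, few cells of a type and little RNA per cell cannot be told apart.

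Duloxetine replicate 2 and mirtazapine replicate 2 stood apart from the other 10 arrays. Over all probe sets their upper quartiles were 8.21 and 8.20, against 8.31 to 8.37 elsewhere, and their medians 6.75 and 6.77, against 6.60 to 6.68. Duloxetine and mirtazapine differences of the 3 genes are therefore given with and without them. The 3 genes lay in the band from the 40th to the 60th percentile of probe sets by mean level, called the middle band here. On these 2 arrays the 8269 probe sets of that band had median shifts of 0.185 and 0.205 above the control mean, against −0.025 to 0.065 on the other 10.

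Slc6a2 read highest in mirtazapine and duloxetine and lowest in amitriptyline and control, but no difference passed the test. On replicates 1 and 2 its log2 value was 6.01 and 6.19 in control, 6.13 and 6.05 in amitriptyline, and 6.35 and 6.10 in imipramine. It was 6.30 on both citalopram arrays. Under duloxetine it was 6.20 and 6.76, and under mirtazapine 6.34 and 6.77. Only the arrays that stand apart read above 6.35, and in duloxetine the lower array exceeded the higher control array by 0.01.

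Against a control mean of 6.10 ± 0.13 (SD, n = 2), Slc6a2 differed by 0.46 ± 0.19 (SE) under mirtazapine (95% interval 0.03 to 0.88, limma adjusted p = 0.202) and by 0.38 ± 0.19 under duloxetine (−0.04 to 0.80, adjusted p = 0.504). Without both arrays that stand apart the differences were 0.24 (adjusted p = 0.337) and 0.10 (adjusted p = 0.899). Without duloxetine replicate 1, which leaves replicate 2 alone for that drug and takes its spread from the other groups, the duloxetine difference was 0.66 with an adjusted p of 0.0435 in limma, the only setting run in which any of the 3 genes was called. In that setting 2038 of the 17469 genes were called, against 0 with both arrays. Duloxetine replicate 2 and mirtazapine replicate 2 read 0.66 and 0.67 above the control mean, beyond the upper quartile of the middle band on those arrays (0.42 and 0.44). How far the shift of those arrays contributed was not tested.

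The other drugs left Slc6a2 with smaller differences. They were 0.20 under citalopram (95% interval −0.22 to 0.62, adjusted p = 1), 0.13 under imipramine (−0.30 to 0.55, adjusted p = 1) and −0.01 under amitriptyline (−0.43 to 0.41, adjusted p = 0.996). In the order of group means, mirtazapine, duloxetine, citalopram, imipramine, control and amitriptyline, every group overlapped the next. The SD of Slc6a2 within groups was 0.224, larger than that of 87.2% of the genes tested, against a median of 0.13. Without the 2 arrays that stand apart it was 0.113, below the 0.138 of Adra1b over the same 10 arrays.

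**Figure D2:**
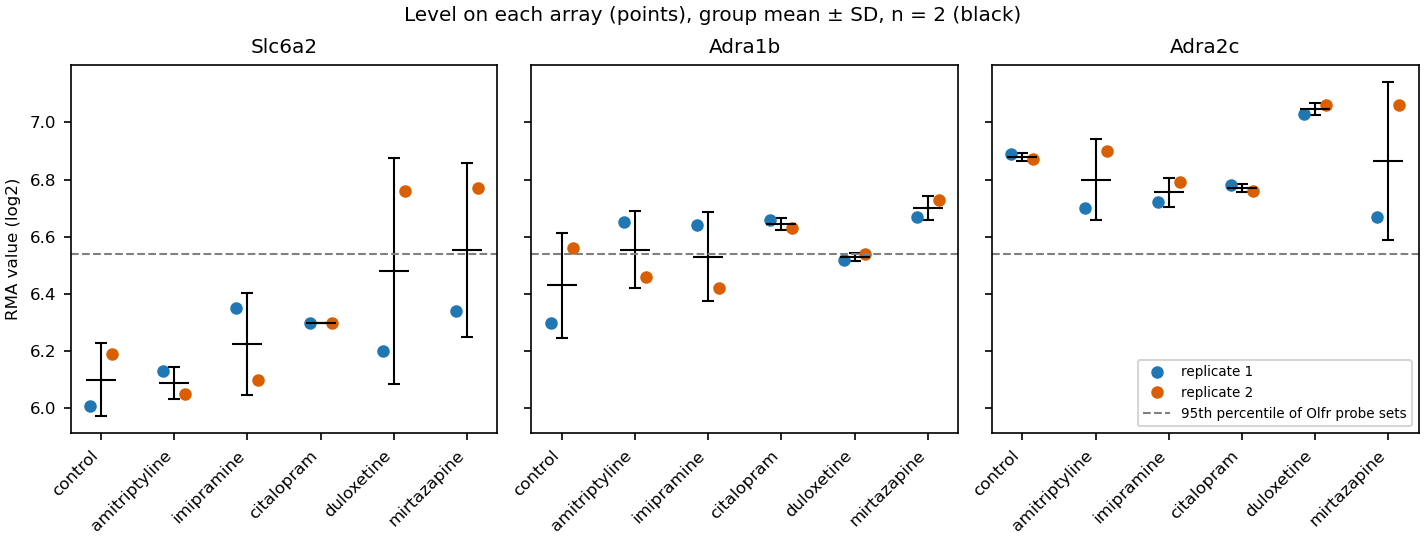
RMA values (log2, vertical) of Slc6a2, Adra1b and Adra2c on each array by group (horizontal), with replicate 1 in blue, replicate 2 in orange, group means ± SD (n = 2) in black and the 95th percentile of the olfactory receptor probe sets dashed. Slc6a2 lies above the dashed line at 6.54 only on the second duloxetine and mirtazapine arrays, and Adra2c reads 7.03 and 7.06 under duloxetine against 6.89 and 6.87 in control.

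Adra1b, the α1B receptor gene, had its lowest mean in control and its highest in mirtazapine. Its log2 values on replicates 1 and 2 were 6.30 and 6.56 in control, 6.65 and 6.46 in amitriptyline, and 6.64 and 6.42 in imipramine. They were 6.66 and 6.63 in citalopram, 6.52 and 6.54 in duloxetine, and 6.67 and 6.73 in mirtazapine. The citalopram and mirtazapine arrays lay above both control arrays, while those of the other 3 drugs overlapped them. The 2 control arrays were themselves 0.26 apart, more than the spread of any drug group.

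The mirtazapine difference of Adra1b was 0.27 ± 0.12 (SE; 95% interval 0.01 to 0.53), a 1.21-fold value, with a limma adjusted p of 0.211. It was 0.24 (adjusted p = 0.403) without both arrays that stand apart, 0.14 without control replicate 1, 0.40 without control replicate 2 and 0.17 after a further quantile normalization. Citalopram followed at 0.22 (−0.04 to 0.47, adjusted p = 1), amitriptyline at 0.13 (−0.13 to 0.38, adjusted p = 0.996), and duloxetine and imipramine both at 0.10 (−0.16 to 0.36, adjusted p = 0.718 and 1). The duloxetine value was 0.09 (adjusted p = 0.923) without both arrays that stand apart. Ordered by mean, mirtazapine came first, then citalopram, amitriptyline, duloxetine and imipramine at the same mean (6.53), and control. Only mirtazapine and citalopram, the first neighbours, did not overlap, by 0.01, and no gap between neighbours exceeded 0.10.

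Adra2c, the α2C receptor gene, differed in direction among the drugs but not beyond the test. Its log2 values on replicates 1 and 2 were 6.89 and 6.87 in control, 7.03 and 7.06 in duloxetine, and 6.78 and 6.76 in citalopram. They were 6.72 and 6.79 in imipramine, 6.70 and 6.90 in amitriptyline, and 6.67 and 7.06 in mirtazapine. Both duloxetine arrays lay above both controls, both imipramine and both citalopram arrays lay below them, and the 2 mirtazapine arrays fell on either side.

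The duloxetine difference of Adra2c was 0.17 ± 0.13 (SE; 95% interval −0.11 to 0.44, limma adjusted p = 0.595), and both duloxetine arrays gave it, at 0.15 and 0.18 above the control mean. The differences were −0.13 under imipramine (−0.40 to 0.15, adjusted p = 1), −0.11 under citalopram (−0.39 to 0.17, adjusted p = 1) and −0.08 under amitriptyline (−0.36 to 0.20, adjusted p = 0.996). Under mirtazapine, a drug that blocks this class of receptor, the mean difference was −0.02 (−0.29 to 0.26, adjusted p = 0.949). Its arrays stood at −0.21 and 0.18 from the control mean, and the second is the array that stands apart. Without both arrays that stand apart the difference was −0.21 under mirtazapine (adjusted p = 0.304) and 0.15 under duloxetine (adjusted p = 0.783). Ordered by mean, duloxetine (7.05 ± 0.02, SD, n = 2) stood 0.165 above control (6.88 ± 0.01), without overlap, and control, mirtazapine, amitriptyline, citalopram and imipramine followed with gaps of at most 0.065 and with overlapping arrays.

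**Figure D3:**
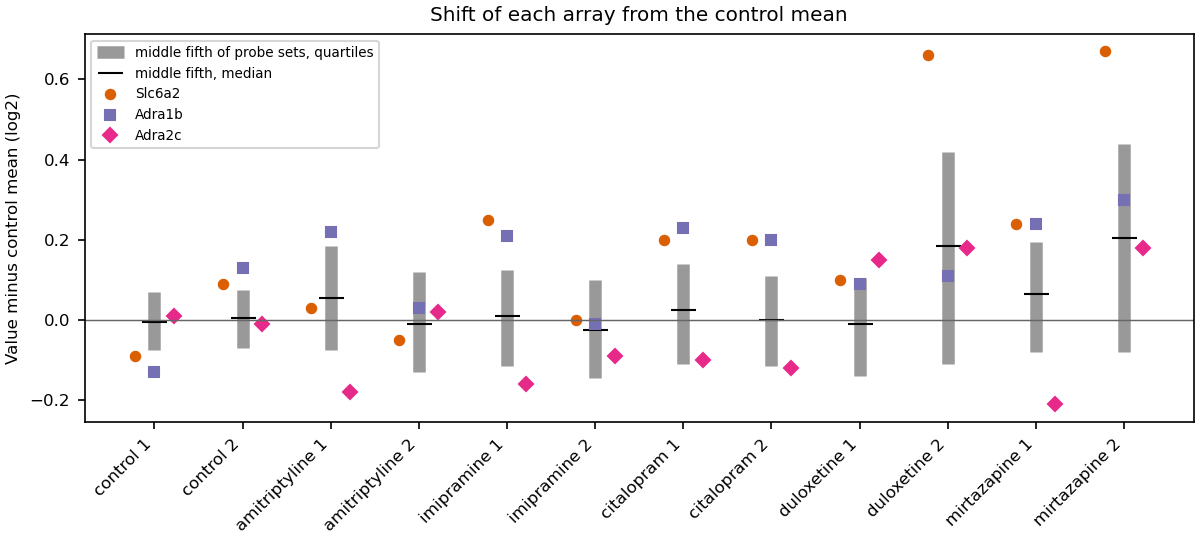
Value minus the mean of the 2 control arrays (log2, vertical) on each of the 12 arrays (horizontal) for Slc6a2, Adra1b and Adra2c, with grey bars for the quartiles and black ticks for the median of the 8269 probe sets in the middle band by mean level. The middle band shifts up by 0.185 and 0.205 on duloxetine replicate 2 and mirtazapine replicate 2, where Slc6a2 reads 0.66 and 0.67, and Adra2c stands at 0.18 on both.

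Across the comparisons, limma called 0 of the 3 genes against control under any drug. The share of all 17469 tested genes called was 0% under amitriptyline, citalopram and duloxetine, 0.0286% under imipramine and 1.74% under mirtazapine. With both arrays that stand apart left out, limma called 370 genes under mirtazapine, against 304 with them, and 0 under duloxetine. At an unadjusted p under 0.05 the mirtazapine comparison had 2 of the 3, Slc6a2 and Adra1b, beside 22.4% of all tested genes, while the others had 0 of the 3, beside 6.14% of all genes under amitriptyline, 4.44% under citalopram, 10.0% under duloxetine and 4.56% under imipramine. The test for any difference among the 6 groups also called 0 of 3 (adjusted p = 0.581 for Slc6a2, 0.658 for Adra2c and 0.674 for Adra1b), with 0.103% of all genes called. All comparisons with control share the same 2 control arrays.

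With 2 arrays in each group, arrays that did not overlap with control were common among all tested genes and set no gene apart. Both citalopram arrays lay beyond both control arrays for 3 of the 3 genes, where 39.1% of all tested genes did so. The counts were 2 of 3 under duloxetine (33.8% of all genes) and under mirtazapine (53.2%), 1 of 3 under imipramine (33.4%) and 0 of 3 under amitriptyline (38.3%).

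The tricyclics amitriptyline and imipramine differ in the central ring, which holds a nitrogen in imipramine, and were given at the same concentration, so they form the only pair compared directly. Amitriptyline minus imipramine was −0.14 for Slc6a2 (95% interval −0.56 to 0.29), 0.03 for Adra1b (−0.23 to 0.28) and 0.05 for Adra2c (−0.23 to 0.32), with limma adjusted p of 1 for each of the 3, and 0% of all genes were called. These intervals leave room for differences of up to 0.56 log2 units for Slc6a2, so they do not show that the drugs act alike. The other drugs differed in concentration and are set side by side above.

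**Figure D4:**
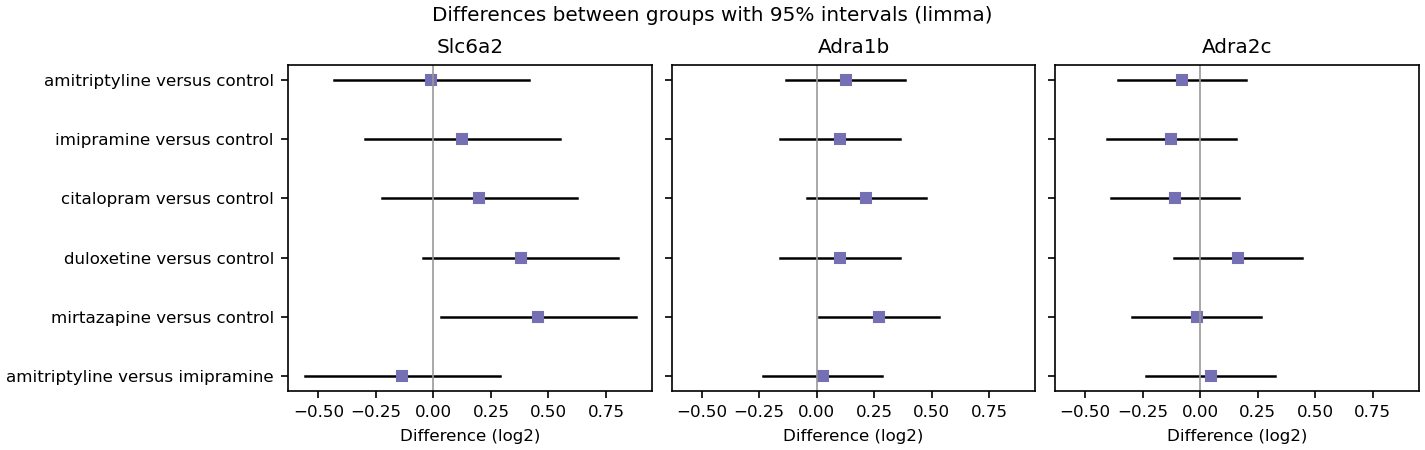
Differences in log2 value (horizontal) with 95% intervals from limma for each drug against control and for amitriptyline against imipramine (vertical), for Slc6a2, Adra1b and Adra2c. The intervals of Slc6a2 and Adra1b under mirtazapine start just above 0, at 0.03 and 0.01, and every other interval includes 0.

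The 3 genes did not vary as a set. Over the 12 arrays Slc6a2 and Adra1b had a Pearson r of 0.58 (permutation p = 0.0234, adjusted over 3 pairs 0.0703) and a Spearman rho of 0.71 (permutation p = 0.0113, adjusted 0.0339). Without control replicate 1 and imipramine replicate 2, the 2 arrays farthest from the median of Adra1b and also its lowest, r was 0.41. Without the 2 arrays that stand apart it was 0.85. Adra2c had an r of 0.46 with Slc6a2 (permutation p = 0.143, adjusted 0.215; rho 0.08, permutation p = 0.818, adjusted 0.818), which became −0.50 without duloxetine replicate 2 and mirtazapine replicate 2, and −0.21 with Adra1b (permutation p = 0.512, adjusted 0.512; rho −0.36, permutation p = 0.249, adjusted 0.373), which became −0.60 without them. These tests treat the 12 arrays as independent, although arrays of a group share a treatment.

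Among the other tested genes, Lrrc15, encoding a leucine-rich repeat membrane protein, Myog, the muscle transcription factor myogenin, and Rnf43, a ubiquitin ligase of Wnt signalling, were most like Slc6a2 (Pearson r of 0.98 for each over 12 arrays, and 0.96, 0.93 and 0.92 over the 10 arrays without those that stand apart). For Adra1b these were Eno2, encoding neuron-specific enolase (0.94), Cd101 (0.91) and Myoz1 (0.88), and for Adra2c they were Aif1l (0.89), the small GTPase gene Diras1 (0.87) and the oestrogen receptor gene Esr1 (0.86). Over the same 10 arrays r was 0.94, 0.94 and 0.88 for the genes like Adra1b, and 0.87, 0.74 and 0.76 for those like Adra2c. Over all 12 arrays Spearman rho ranged from 0.76 to 0.97 for these 9. They were picked as the highest among all tested genes, over 12 arrays that share treatment groups and normalization, and are a description.

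The wider noradrenaline system was read from a list of 62 genes, of which 54 had a probe set with 1 symbol and 53 were tested. None was called under any of the 5 drugs in limma. The medians of their differences were −0.05 under amitriptyline, −0.01 under citalopram, −0.03 under duloxetine, −0.02 under imipramine and −0.06 under mirtazapine, beside medians of −0.02, −0.01, −0.02, −0.01 and −0.04 over all tested genes. At an unadjusted p under 0.05 there were 3, 2, 5, 2 and 12 of the 53. The 12 under mirtazapine are 22.6% of the list, near the 22.4% of all tested genes, and the lowest adjusted p was 0.0769, also under mirtazapine. Without both arrays that stand apart the list's median was −0.02 under mirtazapine and 0.03 under duloxetine, so the sign of the duloxetine median turned.

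Among 8 tested genes for synthesis, storage and breakdown of noradrenaline, 4 had an unadjusted limma p under 0.05 under mirtazapine. Th and Maoa were among these 4, which are 50% of the list, beside 22.4% of all tested genes. The counts were 2 under amitriptyline, 2 under citalopram, 0 under duloxetine and 1 under imipramine. These are 25%, 25%, 0% and 12.5% of the list, beside 6.14%, 4.44%, 10.0% and 4.56% of all tested genes. None of the 8 was called under any drug. Th read 6.61 and 6.67 in control and 6.85 and 7.44 under mirtazapine (difference 0.51 ± 0.17 SE, limma adjusted p = 0.15). It was 0.21 above control without mirtazapine replicate 2 and 0.80 without replicate 1, so its size and its call turn on 1 array. The fit without mirtazapine replicate 1 also called more of all tested genes than the fit with all arrays. Maoa, encoding monoamine oxidase A, read 8.64 and 8.44 in control and 8.12 and 7.80 under mirtazapine (−0.58 ± 0.18, adjusted p = 0.126). It was −0.42 without both arrays that stand apart. With duloxetine replicate 1 alone or replicate 2 alone left out it stayed at −0.58, but Maoa was then called. Those fits also called more of all tested genes under mirtazapine than the fit with all arrays. Under the same drug Ddc, encoding the decarboxylase that follows tyrosine hydroxylase, stood at 0.09, Slc18a2 at 0.03 and Dbh at −0.01 (adjusted p = 0.641, 0.937 and 0.984).

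Downstream of the receptors, all 11 tested G protein genes were negative under amitriptyline (median −0.07) and 10 of 11 under mirtazapine (median −0.09), with none called. All of them except Gnas were among the 6084 tested genes of highest mean, of which 62% were negative under amitriptyline and 75.5% under mirtazapine. The mean of the list stood at −0.06 on mirtazapine replicate 1 and −0.21 on replicate 2, the array that stands apart. Without both arrays that stand apart 9 of the 11 were negative under mirtazapine (median −0.045), beside 57.8% of those 6084 genes. Gnas, encoding the stimulatory α subunit, was at −0.01 under mirtazapine (adjusted p = 0.95), and Adcy1, a neuronal adenylyl cyclase, at −0.26 ± 0.10 (adjusted p = 0.183), or −0.22 without both arrays that stand apart. Of 17 effector enzyme genes 6 were positive under mirtazapine (median −0.04, and 0.02 without both arrays that stand apart). Of 12 genes for receptor desensitisation and cyclic AMP breakdown 3 were positive under mirtazapine (median −0.09 with and without those arrays) and 2 under duloxetine (median −0.13, and −0.02 without them). Under mirtazapine 64.7% of the effector list and 75% of the desensitisation list were negative, beside 55.1% of all tested genes and 75.5% of the 6084. Under duloxetine 83.3% of the desensitisation list was negative, beside 52.3% of all tested genes and 67.8% of the 6084. The 3 tested noradrenergic identity factors, Gata3, Hand2 and Insm1, had a median difference of 0.08 under mirtazapine, and that of the 2 other monoamine uptake carriers, Slc6a3 and Slc29a4, was 0.17. With both arrays that stand apart left out, these medians were −0.01 and 0.05.

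The markers of noradrenergic neurons read higher on average on the arrays that stand apart, though not each of them did. On duloxetine replicate 2 Slc18a2 read 6.64, between its control values of 6.83 and 6.47. The mean of the 4 measured of 6, Slc6a2 among them, was 0.36 above the control mean on duloxetine replicate 2 and 0.47 on mirtazapine replicate 2, and between −0.06 and 0.07 on the other 10 arrays. On the same 2 arrays the mean of 6 microglial markers stood at 0.21 and 0.23, and that of 7 endothelial and mural markers at 0.27 and 0.11. The 8 neuronal markers stood at −0.01 and −0.14. Probe sets of like level also moved on these arrays. The middle band, which holds the 4 noradrenergic markers, had median shifts of 0.185 and 0.205. Microglial, endothelial and mural markers lay in it or in the bands next to it. Those bands had medians of 0.225 and 0.26 below it, and −0.1 and −0.105 above it. The 8269 probe sets of highest mean, which hold the neuronal markers, had medians of −0.12 and −0.17. Whether any list moved beyond its level was not tested. Under mirtazapine 2 of 8 astrocyte markers (Aqp4 and Gfap) and 1 of 6 oligodendrocyte lineage markers (Olig1) fell, where 1.74% of all genes were called, and as many fell without both arrays that stand apart. With all arrays kept, no glial marker was called under the other drugs. Without both arrays that stand apart, some astrocyte and oligodendrocyte lineage markers and an endothelial or mural marker were called as fallen under amitriptyline. Some astrocyte markers were called as fallen under imipramine. That fit also called more of all tested genes under both drugs than the fit with all arrays. All 8 astrocyte and all 6 oligodendrocyte lineage markers were negative under amitriptyline (medians −0.32 and −0.51) and imipramine (−0.27 and −0.53). Under citalopram 7 of 8 and 6 of 6 were negative (−0.15 and −0.54), as under mirtazapine (−0.40 and −0.35), and under duloxetine 3 and 0. Of all tested genes, 56.7%, 52.1%, 50.8%, 55.1% and 52.3% were negative under these drugs in that order. The mean of the oligodendrocyte lineage list was 8.517 and 9.105 on the control arrays. The part of these shifts in the Slc6a2 values was not tested.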

How the data were processed

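The deposited values are log2 expression values of 41345 probe sets on 12 arrays, rounded to 2 decimals, which the authors made with Affymetrix Expression Console and RMA, as the submitters' processing notes record. For software versions and genome build the sources used here give nothing. Precision is set by how few arrays there are, and the median gene had a 95% interval of its difference ± 0.28 (log2).

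Gene names came from GEO's annotation of the platform (23521 with 1 symbol, 1814 with several, 16010 with none), and 99.2% of genes matched the GRCm38.p6 gene table by gene number. Each gene took its brightest probe set by mean, and genes whose mean fell under the 30th percentile were dropped, leaving 17469 of 22180. All 12 arrays entered 1 linear model fitted in limma 3.58.1 (R 4.3.3) with eBayes and no replicate block, with 6 residual and 3.86 prior degrees of freedom. Tests were two-sided, and p-values were Benjamini-Hochberg adjusted over all genes of a comparison and called under 0.05. The fit was tested on simulated data. Correlations used 100000 permutations (scipy 1.17.1), and figures matplotlib 3.10.9.

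The genes and lists were chosen with earlier results of these data known. The correlations between the genes and the shifts of the middle band of probe sets were added after the values were seen, as were the list summaries without both arrays that stand apart. Of the pathway lists, any gene called was to be named, and Th, Dbh, Ddc, Slc18a2, Maoa, Gnas and Adcy1 always. Members of lists of up to 3 tested genes, and other markers named for a call or for their level, were picked after their values were seen. The most alike genes are the 3 tested genes of highest Pearson r, leaving out predicted genes, small RNAs and genes of chromosome 18 or of no known chromosome.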

Additional observations from a re-analysis of the deposited data

How the results depend on the processing

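Each comparison was refitted under another filter (none, or the 50th percentile), with all probe sets kept apart, with a robust trended eBayes, with array weights, after a further quantile normalization, with a replicate block, on the 4 arrays compared alone, without both arrays that stand apart, and without each array in turn, where a group's single array takes its variance from the remaining groups. The count of called genes among the 3 stayed at 0 except under duloxetine without replicate 1 (0 to 1 over arrays left out). The count near background was 2 of 3 at the 50th percentile, where Slc6a2 and Adra1b are not tested, and 1 of 3, Slc6a2, at the 95th percentile of olfactory receptor probe sets, and stayed at 0 for the 20th percentile, the control arrays alone and the 10 arrays. Over arrays left out, differences that changed sign ranged from −0.10 to 0.08 (Slc6a2, amitriptyline), −0.005 to 0.255 (Adra1b, amitriptyline), −0.03 to 0.23 (Adra1b, duloxetine and imipramine alike), −0.18 to 0.02 (Adra2c, amitriptyline) and −0.21 to 0.18 (Adra2c, mirtazapine). Amitriptyline minus imipramine ranged from −0.085 to 0.135 for Adra1b and from −0.055 to 0.145 for Adra2c. Under mirtazapine Dbh ranged from −0.165 to 0.155, Ddc from −0.005 to 0.185, Gnas from −0.03 to 0.01 and Slc18a2 from −0.2 to 0.25. After a further quantile normalization the sign also turned for Adra1b between the tricyclics (−0.0092) and, under mirtazapine, for Ddc (−0.0129) and Slc18a2 (−0.0579). Without both arrays that stand apart it turned for Ddc (−0.005), Gnas (0.01) and Slc18a2 (−0.2). The cause of these turns was not tested; all lie within the intervals of the differences.

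Replicate numbers did not pair the samples across all groups. Deviations of same-numbered arrays correlated from −0.44 to 0.71 over 15 pairs of groups, with 4 pairs over 0.1. The 0.71 was between duloxetine and mirtazapine, whose second arrays stand apart. The other pairs over 0.1 were among amitriptyline, citalopram and imipramine (0.13 to 0.20). With the replicate block, Slc6a2 differed from control by 0.46 under mirtazapine (adjusted p = 0.202), and 0 of the 3 genes were called in any comparison. Over all genes, arrays left out moved the count called under mirtazapine (304) between 0, without control replicate 1, and 1450, without mirtazapine replicate 1, and it was 14 on the 4 arrays alone. The same range was 0 to 2038 under duloxetine, 0 to 48 under amitriptyline, 0 to 29 under imipramine and 0 to 10 under citalopram. Array weights called 222 genes under amitriptyline, 128 under imipramine and 76 under citalopram, against 0, 5 and 0, and 110 under mirtazapine. Without both arrays that stand apart the counts were 228 under amitriptyline and 84 under imipramine. In the test over 6 groups, alternatives with all arrays called between 2 and 88 genes, against 18, and leaving out 1 array moved the count from 0 to 349, the latter without duloxetine replicate 1.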
